A study of Mus musculus with 13 samples.

Results

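Esr1, Pgr, Nr3c1, Nr3c2 and Greb1 encode the steroid hormone receptors ERα (estrogen), PR (progesterone), GR (glucocorticoids) and MR (mineralocorticoids), together with GREB1, a chromatin-bound cofactor of hormone receptors. These 5 genes of the 32285 counted were picked by symbol, and their levels were read in 100523 fibroblast barcodes from 13 droplet libraries of the mouse mammary gland. A barcode was taken as a fibroblast when it held 500 to 7500 genes, at most 10% mitochondrial UMIs, at least 0.5% of UMIs from Dcn, Lum and Col1a2, and no UMI of Epcam, Pecam1, Rgs5, Sox10, Ptprc or Myog, which mark epithelium, endothelium, pericytes, Schwann cells, leukocytes and muscle. A UMI is a molecular tag that counts 1 captured transcript. Levels are given as CPM, the UMIs of a gene scaled by all UMIs of the fibroblasts in a library or class to the usual common total, and since reads came from the 3′ end, levels of different genes are not ranked against each other.

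Steroid receptors are transcription factors that wait in complex with chaperones until a hormone enters the cell, and then bind DNA and recruit coregulators. In the mammary gland, estrogen and progesterone act through ERα and PR in both luminal epithelium and stroma, the gene for PR is a classical target of ERα, and Greb1 is among the most used reporters of ERα activity in breast cells. GR and MR are close relatives that share ligands and DNA elements, and GR is used by most cell types while MR is best known from salt-transporting epithelium.

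All mice were female. The puberty (4-week by the labels, slightly older by the study's methods), adult (9-week virgin), pregnancy (day 14.5), lactation (day 10) and involution (day 4) groups held 1 library each, of wildtype C57BL/6 stromal cells sorted as Lin-CD24-, that is without the lineage markers CD31, CD45 and TER-119 and without CD24. The placebo and MPA + E groups held 2 libraries each of the same sort, from 9-week wildtype C57BL/6 mice. The labels call the treatment a drug, and the study's methods give it as pellets under the skin of medroxyprogesterone acetate (MPA, a synthetic progestin) and estradiol (E). Each of these libraries pooled a pair of females, and the estrous stage of the virgin mice was not given in the sources used here. The hyperplasia and tumor groups held 2 libraries each of GFP-sorted cells from raGFP-Wnt1 mice (Pdgfra-GFP KI/+ MMTV-Wnt1 T/+, mixed C57BL/6 FVB background). The MMTV promoter drives Wnt1 chiefly in mammary epithelium, the GFP marks cells that use Pdgfra, and each mouse gave both its hyperplastic gland and its tumor, at an age of 45 weeks (number 1) or 17 weeks (number 2). Genotype, background, age and sort therefore differed together between the raGFP-Wnt1 libraries and the normal ones, and cannot be told apart.

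Libraries held 4236 to 11951 fibroblasts and 47521842 to 102522735 fibroblast UMIs, with medians of 3990 (pregnancy) to 20256 (tumor 2) UMIs per cell. Any pair of libraries shared at most 34 barcodes. The 5 fibroblast markers Dcn, Lum, Pdgfra, Col1a1 and Col1a2 summed to 20940 CPM or more in every library. Markers of other cells were low but not at 0, with the endothelial list at 1.21 CPM or less, the pericyte list at 2.13 to 18.1 CPM and the luminal list at 7.26 to 63.0 CPM, and with the gate genes Pecam1, Rgs5, Epcam, Sox10, Ptprc and Myog at 0 by selection. Of the 63.0 CPM of the luminal list in hyperplasia 2, 58.75 CPM was Krt19. That gene was also among the leading genes of progenitor-like fibroblast clusters in the hormone and raGFP-Wnt1 libraries. The immune list was at 6.58 and 7.65 CPM in hyperplasia and at 4.65 and 14.3 CPM in tumors, against 3.24 CPM or less in the wildtype libraries, with the T cell gene Cd3e at 2.86 to 12.7 CPM in raGFP-Wnt1 and at 0.02 CPM or less in wildtype libraries, and the Schwann list at 50.5 CPM in puberty, 1.81 and 9.21 CPM in tumors and 12.3 to 21.5 CPM elsewhere. The part of these lists in the results was not tested. The basal epithelial list, which holds the contractile gene Acta2, reached 257 CPM in pregnancy and 229.9 to 698.5 CPM in tumors against at most 50.4 CPM elsewhere, and the milk genes reached 467.8 CPM in lactation. Acta2 alone was at 219.4 CPM in pregnancy and at 228 and 697.6 CPM in tumors. Krt14 was at 22.4 CPM in pregnancy and at 1.11 CPM or less elsewhere. Cebpb, a transcription factor of the acute-phase response, was at 48.5 to 60.8 CPM in the puberty, adult and pregnancy libraries and at 453.9 CPM or more in the other 10, so the libraries fall apart by a gene outside the steroid receptors.

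On GRCm38 with GENCODE M21, Esr1 (ENSMUSG00000019768) lies at chr10:4611593-5005614 on the plus strand, Pgr (ENSMUSG00000031870) at chr9:8899833-8968611 plus, Nr3c2 (ENSMUSG00000031618) at chr8:76899442-77245012 plus and Greb1 (ENSMUSG00000036523) at chr12:16670615-16800886 minus. The 250 bases before the transcript starts of Pgr and Greb1 are shown because these 2 genes were the ones of the 5 that rose under MPA + E. They come from RefSeq on GRCm38, and capitals mark matches to the half-site of an estrogen response element (GGTCA or its reverse complement TGACC) and to ACANNNTGT, the core shared by progesterone and glucocorticoid response elements.
Pgr, chr9:8899583-8899832, plus strand: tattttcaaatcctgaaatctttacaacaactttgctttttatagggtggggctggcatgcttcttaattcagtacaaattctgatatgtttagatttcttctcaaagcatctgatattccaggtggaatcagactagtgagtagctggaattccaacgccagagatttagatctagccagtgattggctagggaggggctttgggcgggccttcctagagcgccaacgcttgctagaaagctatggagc
Greb1 first start, chr12:16800887-16801136, minus strand: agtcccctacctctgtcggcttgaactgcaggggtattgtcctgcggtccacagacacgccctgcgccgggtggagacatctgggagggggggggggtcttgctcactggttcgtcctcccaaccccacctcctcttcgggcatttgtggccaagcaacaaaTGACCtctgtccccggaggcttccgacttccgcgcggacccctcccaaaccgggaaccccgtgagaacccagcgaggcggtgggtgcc
Greb1 second start, chr12:16757240-16757489, minus strand: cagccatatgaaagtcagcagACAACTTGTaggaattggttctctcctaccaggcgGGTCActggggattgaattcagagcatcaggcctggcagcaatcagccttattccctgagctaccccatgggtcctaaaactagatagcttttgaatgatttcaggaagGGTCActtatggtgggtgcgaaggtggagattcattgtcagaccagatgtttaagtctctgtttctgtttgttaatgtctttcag

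The Pgr window held neither motif, and a GC box (GGGCGG) 47 bases and a CCAAT box 67 bases before the start. The first Greb1 window held 1 half-site, beginning 88 bases before the start. The second held 2 half-sites, beginning 194 and 85 bases before the start, and 1 ACANNNTGT core at 229 bases. Searched on both strands, the half-site was in 35.2% and the core in 5.84% of 32851 mouse promoter windows of this length, while the full palindromic estrogen response element was in 0.0639% of them and in none of these 3. Of the genes not shown, the Nr3c2 window held 2 half-sites, beginning 135 and 49 bases before the start, and the Esr1 windows held neither motif. A match in such a window is a description and not a binding site, and the half-site letters are also part of the full element.

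Across the stages, Pgr stood at 43.5 CPM in pubertal, 41.1 CPM in adult, 34.8 CPM in pregnant, 4.08 CPM in lactating and 11.7 CPM in involuting glands. Greb1 had the same shape, with 19.0, 28.6, 25.7, 2.94 and 6.80 CPM in the same order. Both genes were thus lowest in lactation, next lowest in involution, and higher in puberty, the adult and pregnancy. The ratio of the highest to the lowest stage was 10.7 for Pgr (95% counting interval 9.36 to 12.2) and 9.75 for Greb1 (8.38 to 11.4). These intervals cover counting error only, as for every stage value here, because each stage was 1 library and no test was possible.

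Esr1 moved far less, with 79.5, 56.1, 70.8, 86.6 and 68.5 CPM in stage order. It was highest in lactation, the stage with the least Pgr, and its ratio of highest to lowest was 1.54 (1.48 to 1.61). Nr3c1 (ENSMUSG00000024431, chr18:39410545-39519421, minus strand) stood at 162.6, 144.0, 139.5, 215.6 and 181.5 CPM, also highest in lactation, with a ratio to its lowest stage of 1.55 (1.501 to 1.592). Nr3c2 was at 1.5, 2.55, 3.32, 6.03 and 5.32 CPM, so the gene for MR was lowest in puberty and highest in lactation, at a ratio of 4.03 (3.13 to 5.25). Neighbors in these orders whose counting interval included equality were pregnancy and involution for Esr1, puberty and adult for Pgr, and lactation and involution for Nr3c2.

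Since classes of fibroblast took different shares of each library, the ratios were also computed with equal weight for each of 7 classes. For the same pairs of stages they were then 6.81 for Pgr, 5.99 for Greb1, 2.43 for Nr3c2 and 1.69 for Esr1, a choice made after the values had been seen. The highest stage changed for Pgr, which was at 35.5 CPM in the adult and 31 CPM in puberty, and for Greb1, at 27.1 CPM in pregnancy and 25.1 CPM in the adult, while lactation was lowest for both (4.55 and 4.19 CPM). The 3 stages with high Pgr and Greb1 are also the 3 libraries with low Cebpb, and the part of that split in the stage pattern was not tested. In sums over cells, fewer cells with a transcript and fewer transcripts per cell cannot be told apart. With every cell thinned to 2000 UMIs, 5.58%, 4.81%, 5.37%, 0.876% and 1.95% of fibroblasts held a Pgr UMI in puberty, adult, pregnancy, lactation and involution, and 2.84%, 4.15%, 4.61%, 0.672% and 1.42% held a Greb1 UMI. Thinned shares followed the CPM in that both were lowest in lactation. Unthinned, 7.91% of stage fibroblasts held a Pgr UMI and 7.03% a Greb1 UMI at a median of 5911 UMIs, against 0 of 294 endothelial barcodes (at least 2 Pecam1 UMIs and below the fibroblast gate, with a share of up to 1.25%, exact binomial) at 1815 UMIs and 0 of 500 pericyte barcodes (at least 2 Rgs5 UMIs, up to 0.735%) at 2240 UMIs for either gene.

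**Figure D1:**
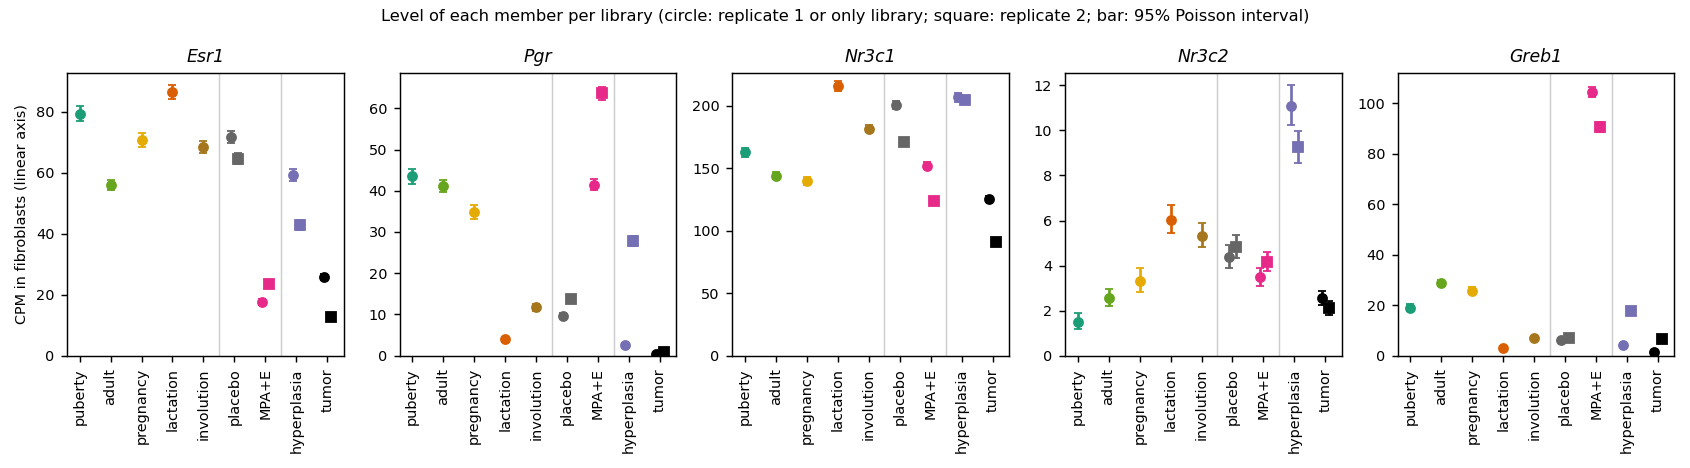
Levels of the 5 genes in fibroblasts of each library, as CPM on a linear axis that starts at 0 and differs between panels. Points are single libraries (squares are second replicates) and bars are exact 95% Poisson intervals. Pgr and Greb1 are lowest of the stages in lactation (4.08 and 2.94 CPM), Greb1 is highest under MPA + E (104.5 and 90.6 CPM), and Pgr is under 1 CPM in both tumors.

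The adult library can be set beside the placebo libraries, which came from mice of the same labelled age, strain and sort. Pgr was at 41.1 CPM in the adult and at 9.59 and 13.7 CPM under placebo, which is 4.29 (3.94 to 4.67) and 2.998 (2.79 to 3.23) times as high. Greb1 was at 28.6 CPM against 6.03 and 6.82, or 4.74 (4.27 to 5.28) and 4.19 (3.8 to 4.64) times as high. Glands of untreated and placebo-treated virgin mice thus stood apart in both genes. The adult library was 1 sample of another experiment, so no test was made, and Cebpb stood at 60.8 CPM in it and at 543.5 and 1043 CPM under placebo.

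Where in the fibroblast population these genes were used was read from clusters made in 3 sets of libraries (the stages, the hormone arms and raGFP-Wnt1), each integrated apart, with the 5 genes and all listed genes left out of the clustering. Class names mean likeness by fixed markers: progenitor-like (Pi16, Dpp4), preadipocyte-like (Fabp4, Cd36), lobular-like (Bmp5, Thbs4), adipogenesis-regulatory-like (Gdf10, Clec11a) and ECM remodeling-like (Crabp1, Pla2g7). In the stage libraries a further cluster of 5262 cells met no name, and Il31ra, Pgr, Ptpn5, Tgm2 and Greb1 led its genes. Because classes were made from the same cells, levels by class are a description, with no test.

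Pgr was concentrated in that unnamed Il31ra cluster, at 144.9, 147.2, 123.5, 15.3 and 47.8 CPM from puberty to involution. Of the named classes tabulated in every library, the progenitor-like one was highest, at 32.0, 38.6, 46.6, 7.61 and 34.9 CPM. A further cluster was led by milk genes (Wap, Csn1s1) with the stages pooled. Over all fibroblasts the milk list was at 0.123 CPM in puberty, 0.0813 CPM in the adult and 467.8 CPM in lactation. This cluster held 31.0, 40.4, 32.2, 1.66 and 13.5 CPM of Pgr. The ECM remodeling-like class lay at the other end, at 0 to 1.68 CPM, and the preadipocyte-like, lobular-like and adipogenesis-regulatory-like classes between 1.96 and 8.47 CPM. The Il31ra cluster alone held 74.7%, 66.3%, 49.9%, 18.3% and 25.4% of the Pgr UMIs in this order, while it made up 16.5%, 13.4%, 13.03%, 5.15% and 5.60% of fibroblasts. Within the cluster and within the progenitor-like class, as in the whole library, lactation was the lowest stage.

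Greb1 followed Pgr in the Il31ra cluster, at 59.9, 89.5, 71.9, 13.3 and 22.1 CPM in stage order, but not in the rest of the gland. Among the named classes its thinned share, averaged over the stage libraries, was highest in lobular-like cells (2.35%) and lowest in ECM remodeling-like cells (0.667%). In pregnancy the lobular-like and adipogenesis-regulatory-like classes held 25.9 and 26.6 CPM of Greb1, more than the 17.9 CPM of the progenitor-like class, which held 46.6 CPM of Pgr. Greb1 was therefore present in classes with little Pgr.

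Esr1 had a gradient in the same direction as Pgr but shallow, from 69.5 to 129.2 CPM in progenitor-like and 87.8 to 137.9 CPM in Il31ra-cluster cells down to 15.6 to 38.0 CPM in ECM remodeling-like cells. Thinned shares were 17.8% in progenitor-like and 4.98% in ECM remodeling-like cells as means over the stage libraries, and this order held in 5 of 5 of them, in 4 of 4 hormone libraries and in 4 of 4 raGFP-Wnt1 libraries. Nr3c1 varied least by class as a ratio, with thinned means of 33.1% in lobular-like and 21.9% in ECM remodeling-like cells. Nr3c2 ran the other way to all of these, since ECM remodeling-like cells held 5.54 to 8.53 CPM and progenitor-like cells 1.60 to 5.13 CPM, with thinned means of 1.62% and 0.691%. The named class poorest in Esr1, Pgr and Greb1 was thus the one richest in Nr3c2. The Nr3c2 shares rest on few UMIs, and pericyte barcodes of the stage libraries held an Nr3c2 UMI more often than fibroblasts did, in 7.60% of 500 at a median of 2240 UMIs against 2.36% at 5911 UMIs.

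**Figure D2:**
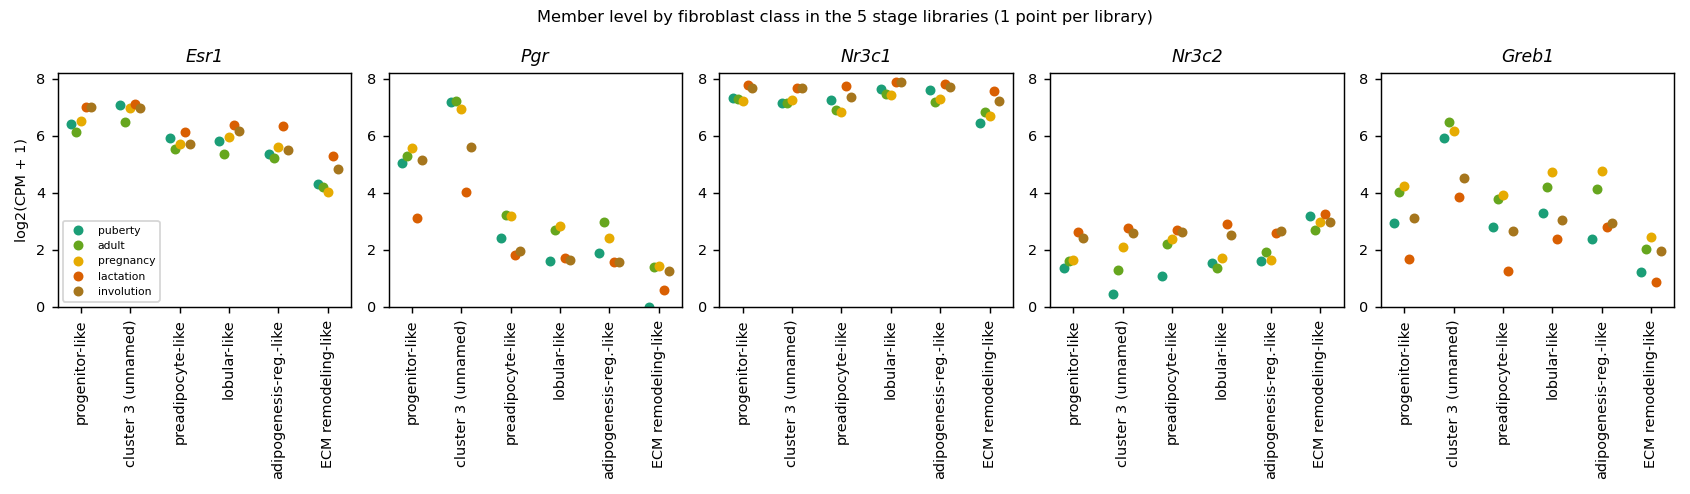
Level of the 5 genes by fibroblast class in the stage libraries, as log2(CPM + 1), with 1 point for each library. Pgr and Greb1 are highest in the unnamed Il31ra cluster (cluster 3) in each library, of the classes shown ECM remodeling-like cells are lowest for Esr1 and highest for Nr3c2, and Nr3c1 spans the least across classes.

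In single cells thinned to 2000 UMIs, and with all classes pooled, the share with a Greb1 UMI was higher where Pgr was in 9 of the 11 libraries with at least 20 such cells, all but lactation and hyperplasia 1, and in 1 of the 9, placebo 1, the exact binomial interval took in the share of cells without Pgr. In the adult, 18.2% of 544 cells with a Pgr UMI held a Greb1 UMI, against 3.44% of cells without one. The same shares were 13.1% and 2.24% in puberty, 10.1% and 4.30% in pregnancy, and 7.45% and 1.30% in involution. In lactation 0 of 73 cells with Pgr held Greb1, which allows a share of up to 4.11% (3 counts), against 0.678% of the others, so a difference was not detectable at this depth. In hyperplasia 1 it was 0 of 32 cells, which allows up to 9.38%, against 0.658%, and in hyperplasia 2 the shares were 13.1% of 221 cells with Pgr and 2.58% of those without. Under placebo the shares with Pgr rested on 2 of 78 cells (2.56%, 95% interval 0.312% to 8.96%) and 5 of 99 cells (5.05%, 1.66% to 11.4%), against 1.17% and 1.22% without. Under MPA + E they were 34.3% and 27.2% with Pgr and 14.1% and 11.6% without. Both genes were concentrated in the Il31ra cluster, and within progenitor-like cells alone the ratio of these shares was 2.92 in the adult (5.30 pooled), 1.38 in pregnancy (2.34), 1.94 and 1.28 under MPA + E (2.43 and 2.35) and 3.10 in hyperplasia 2 (5.08), but 6.00 in puberty (5.88) and 7.14 in involution (5.71). Under placebo it rested on 1 of 59 and 4 of 75 cells with Pgr, and there, in pregnancy and in MPA+E 2 the exact interval took in the share of cells without Pgr. Cells with an Esr1 UMI held Pgr 1.45 to 3.01 times as often as cells without one in the 9 wildtype libraries and hyperplasia 2, with all classes pooled, while the ratio was 1.03 in hyperplasia 1 and no such cell held Pgr in the tumors (0 of 447 and 0 of 98, which allows up to 0.671% and 3.06%). In lactation the ratio of 1.45 rested on 15 of 1261 cells with Esr1 (1.19%, exact interval 0.667% to 1.95%). That interval took in the 0.82% of cells without Esr1. Within progenitor-like cells that ratio was 0.954 in the adult, 1.18 in MPA+E 2, 1.19 in involution, 1.20 in pregnancy, 1.23 in lactation, 1.33 to 1.86 in puberty and placebo, 0.56 in hyperplasia 1 and 1.57 in hyperplasia 2. In the adult, pregnancy, lactation, involution, placebo 1 and MPA+E 2 the exact interval took in the share of cells without Esr1. It did not in puberty and placebo 2. Detection of Nr3c1 was at most weakly tied to that of Esr1, with ratios of 0.814 to 1.16 over the 13 libraries. Cells of 1 library are not replicates and depth was fixed by thinning, so these shares carry no test.

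**Figure D3:**
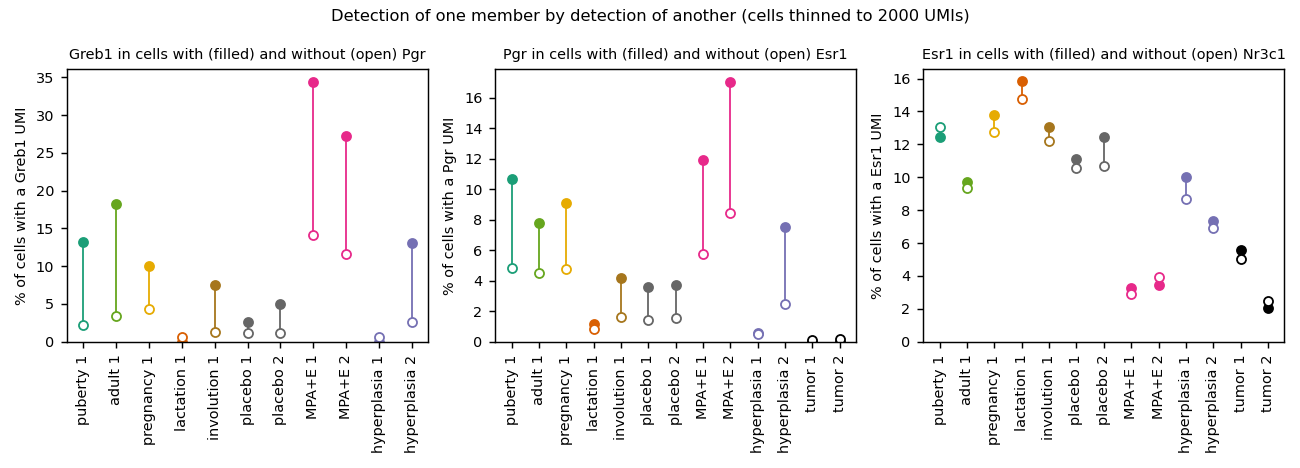
Share of fibroblasts with a UMI of one gene among cells with (filled) and without (open) a UMI of another, each cell thinned to 2000 UMIs. The gap between filled and open points is wide for Greb1 given Pgr in the adult (18.2% and 3.44%) and under MPA + E, and narrow for Esr1 given Nr3c1 in each library.

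The hormone comparison asked how 9-week glands with MPA and estradiol pellets differed from placebo glands. Greb1 was at 6.03 and 6.82 CPM in the placebo libraries and at 104.5 and 90.6 CPM under MPA + E, and rose by 3.93 ± 0.14 (log2 fold change ± SE, n = 2 libraries each, adjusted p = 0.00367, edgeR quasi-likelihood test). Pgr went from 9.59 and 13.7 CPM to 41.4 and 63.6 CPM, a rise of 2.18 ± 0.33 (adjusted p = 0.0347). Esr1, the gene for the receptor of the given estrogen, went the other way, from 71.8 and 64.7 CPM to 17.5 and 23.5 CPM, and fell by 1.71 on the log2 scale (SE 0.19, adjusted p = 0.0158). For these 3 genes the gaps between the arms were wider than the spread within an arm. The arms did not overlap for any of the 5 genes, nor for 43.6% of all genes tested.

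Of 15642 genes tested, 678 (4.33%) passed the adjusted threshold of 0.05, 2.69% as higher and 1.64% as lower, and of the 5 genes 2 were higher and 1 was lower. Nr3c1 was at 200.5 and 170.7 CPM under placebo and 152.0 and 123.5 CPM under MPA + E (-0.42 ± 0.12, adjusted p = 0.141). It was called by DESeq2 (adjusted p = 0.0451) and by edgeR with the replicate number as a block (0.0165). Nr3c2, at 4.39 and 4.83 against 3.47 and 4.15 CPM, did not pass either (-0.26 ± 0.19, adjusted p = 0.562). Without placebo 1 or 2 the call was lost for Esr1 (adjusted p = 0.0829 and 0.0847) and Pgr (0.142 and 0.0863) and kept for Greb1 (0.0446 and 0.0421). Those fits assume that the lone placebo library varies like the MPA + E ones, and the number of genes called fell to 22 and 42.

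With cells thinned to 2000 UMIs, Greb1 was met in 1.19% and 1.29% of placebo and in 15.3% and 12.9% of MPA + E fibroblasts, and Esr1 in 10.7% and 11.2% against 2.99% and 3.82%. Unthinned, 6.01% and 6.18% of placebo and 46.9% and 37.8% of MPA + E fibroblasts held Greb1. In pericyte barcodes of the same libraries 0 of 246 under placebo and 3 of 359 (0.836%) under MPA + E did, at medians of 7032 and 4857 UMIs. With equal weight for each of 6 classes, Pgr was at 8.23 and 9.63 CPM under placebo and 35.1 and 50.1 CPM under MPA + E, and Greb1 at 7.67 and 6.99 against 96.7 and 81.9 CPM. The difference between the arms was therefore also present with the mix of classes held equal.

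Within classes, Greb1 rose in each of the 5 named ones that were tested, by 3.43 (lobular-like) to 4.40 (preadipocyte-like), and Esr1 fell in each of them, by 1.26 (adipogenesis-regulatory-like) to 2.04 (progenitor-like) on the log2 scale. The share of all genes called was 3.71% in adipogenesis-regulatory-like (2.54% higher, 1.17% lower), 1.31% in ECM remodeling-like (0.697% and 0.611%), 2.5% in lobular-like (1.69% and 0.811%), 4.64% in preadipocyte-like (3.21% and 1.44%) and 3.51% in progenitor-like cells (1.96% and 1.55%). ECM remodeling-like cells, the poorest in Greb1 under placebo, went from 1.01 and 1.34 CPM to 23.3 and 24.5 CPM. Nr3c1 and Nr3c2 passed in none of the 5 classes by edgeR without a block, where at unadjusted p Nr3c1 in preadipocyte-like (0.0413) and progenitor-like cells (0.0143) was under 0.05. With the replicate number as a block in edgeR, Nr3c1 passed in these 2 classes (adjusted p = 0.00157 and 0.0363).

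Pgr responded unevenly. In adipogenesis-regulatory-like cells it was at 1.04 and 0.736 CPM under placebo and 18.4 and 19.97 CPM under MPA + E, a rise of 4.48 ± 0.27 (adjusted p = 0.000708, edgeR). In lobular-like cells it went from 0.979 and 0.687 to 18.2 and 19.4 CPM (4.503 ± 0.37, adjusted p = 0.00145) and in preadipocyte-like cells from 0.637 and 0.892 to 11.2 and 19.3 CPM (4.31 ± 0.47, adjusted p = 0.0105). These 3 classes were near 1 CPM or lower under placebo and at 11.2 CPM or more under treatment. In the same order, the lowest thinned share of cells with Pgr in a library was 0.122%, 0% and 0.139%. The classes held 3606, 1244 and 3136 cells over the 4 libraries, so the sizes of these rises rest on few UMIs under placebo. ECM remodeling-like cells went from 0.578 and 0.667 to 5.26 and 5.89 CPM (3.10 ± 0.32, adjusted p = 0.0139). Progenitor-like cells, which began at 19.6 and 27.4 CPM, reached 49.0 and 85.3 CPM (1.54 ± 0.33). This difference did not pass by edgeR (adjusted p = 0.0729) but did by DESeq2 (0.000179) and by edgeR with no filter on low counts (0.00322). It also passed by edgeR with the replicate number as a block. Leaving out 1 library at a time gave log2 fold changes of 1.03 to 1.90. The class itself took 31.9% and 34.3% of fibroblasts under placebo and 15.2% and 19.9% under MPA + E, while the unnamed cluster led by Ctla2a and Ifi206, which was not tested, went from 6.20% and 6.37% to 19.3% and 19.6%. The part of that shift in the values within the class, and in the comparison between classes, was not tested.

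The difference of the treatment effect between classes was tested itself, in 1 edgeR fit with a term for each library. Of 13841 genes, 12.1% passed, and Pgr did (F = 34.5, adjusted p = 2.74e-05), also with any 1 of the 4 libraries left out (adjusted p 1.86e-05 to 0.00970). Esr1 (adjusted p = 0.0550), Greb1 (0.115), Nr3c2 (0.305) and Nr3c1 (0.608) did not pass. Esr1 passed without MPA+E 2 (0.00655). The Ctla2a and Ifi206 cluster, of 3367 cells, met no name. It held 26.5 and 27.4 CPM of Pgr under placebo and 108.8 and 151.1 CPM under MPA + E, and 20.8 and 18.4 against 225.9 and 202.1 CPM of Greb1, under MPA + E the highest of the clusters with at least 50 cells. Among the class calls, those of Esr1 and Pgr in preadipocyte-like cells and Esr1 in progenitor-like cells were lost without either placebo library (adjusted p 0.0626 to 0.0767), and that of Pgr in ECM remodeling-like cells without placebo 1 (0.0593).

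**Figure D4:**
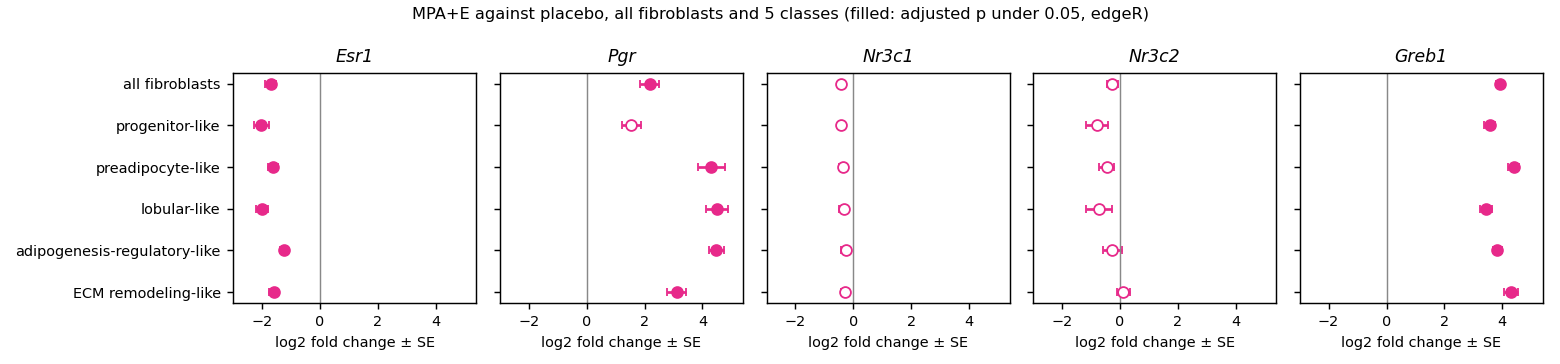
Log2 fold change of MPA + E over placebo with its SE, in all fibroblasts and in 5 classes (edgeR, 2 libraries each). Filled points have an adjusted p under 0.05. Greb1 is far right of 0 in each row (3.43 to 4.40) and Esr1 left of 0, while Pgr spreads from 1.54 in progenitor-like to 4.503 in lobular-like cells.

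Other genes of the receptor pathways were read from lists, beside 2.69% of all genes called higher and 1.64% lower in the hormone comparison. None of 9 tested genes of other steroid and estrogen-related receptors passed there by edgeR, DESeq2 or limma-voom, with 2 at an unadjusted p under 0.05 by edgeR. Of 10 chaperones 1 rose, Fkbp5 (1.20 ± 0.11, adjusted p = 0.0105), a target of GR and PR that slows receptor maturation, and of 14 coregulators none passed by edgeR (4 at an unadjusted p under 0.05, 1 called by DESeq2 and 0 by limma-voom). Of 14 genes used as estrogen receptor targets, Ccn5 (2.77 ± 0.15) rose and Igf1 (-1.41 ± 0.10), a growth factor that stroma supplies to epithelium, fell. At an unadjusted p under 0.05 by edgeR there were 7 of the 14, and DESeq2 called 6 and limma-voom 2. Over all 15642 genes tested these counts were 2893, 1358 and 679. The median of the 14 targets was -0.49 on the log2 scale, beside 0.01 for all genes.

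Against the same shares (2.69% higher, 1.64% lower), none of 12 progesterone receptor targets passed by edgeR, among them Wnt4 and Tnfsf11, which PR drives in luminal epithelium. Tnfsf11 was at 0.0804 to 0.230 CPM in the placebo and MPA + E libraries, so near the floor that a change could hardly be called. At an unadjusted p under 0.05 there was 1, and DESeq2 called 1 and limma-voom 0. Of 18 glucocorticoid receptor targets 2 rose, Klf15 (1.96 ± 0.28, adjusted p = 0.0292) and Fkbp5, which stands in the chaperone list too. Of 10 mineralocorticoid receptor targets Atp1b1, a subunit of the sodium pump, fell by 2.62 on the log2 scale (SE 0.18). The medians of the progesterone, glucocorticoid and mineralocorticoid target lists were -0.26, 0.13 and 0.12.

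In raGFP-Wnt1 glands, hyperplasia and tumor were compared with normal virgin glands (puberty and adult joined, as in the study's methods) and with each other. Pgr was at 43.5 and 41.1 CPM in the normal libraries, at 2.62 and 27.7 CPM in hyperplasia 1 and 2, and at 0.361 and 0.775 CPM in tumor 1 and 2. Against normal glands it fell in tumors by 6.36 on the log2 scale (SE 1.46, n = 2 libraries each, adjusted p = 0.0268, limma-voom). Esr1, at 79.5 and 56.1 CPM in normal glands, 59.4 and 42.8 CPM in hyperplasia and 25.8 and 12.8 CPM in tumors, fell by 1.91 (SE 0.39, adjusted p = 0.0185). Greb1, at 19.0 and 28.6, 4.04 and 17.8, and 1.51 and 6.505 CPM, fell by 2.97 (SE 0.82, adjusted p = 0.0452). Tumor fibroblasts thus held less Pgr, Esr1 and Greb1 than those of the puberty and adult libraries in both mice, and 3 of the 5 genes passed, all as lower, where 22.8% of 16302 genes did (12.7% higher, 10.1% lower). The libraries of the 2 groups did not overlap for 4 of the 5 genes and for 64.5% of all. Nr3c1, at 125.2 and 90.5 CPM in tumors against 162.6 and 144.0 CPM, did not pass (-0.56 ± 0.21, adjusted p = 0.0986), nor did Nr3c2 (0.17 ± 0.31, adjusted p = 0.726). The choice of normal glands bears on the sizes, since the wildtype placebo libraries, which were not in this fit, held 9.59 and 13.7 CPM of Pgr and 6.03 and 6.82 CPM of Greb1, so that Greb1 in tumor 2 lay between them. Cebpb was at 55.7 and 60.8 CPM in the normal libraries and at 910.4 and 846.1 CPM in the tumors, and the part of that split was not tested.

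The call for Greb1 in tumors was lost with edgeR in place of limma-voom (adjusted p = 0.0726), with a stricter fibroblast gate (0.0524), with non-fibroblasts kept (0.0510) and without puberty (0.118), adult (0.197) or tumor 1 (0.0662). That for Esr1 was lost without puberty (0.0989) or adult (0.0613), that for Pgr without puberty (0.0838), adult (0.0922) or tumor 2 (0.0590), and Nr3c1 passed without tumor 1 (0.0122).

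In hyperplasia Nr3c2 stood out, at 11.1 and 9.25 CPM against 1.5 and 2.55 CPM in normal glands. It rose by 2.28 ± 0.28 (adjusted p = 0.0117, limma-voom) and was the 1 gene of the 5 that passed, with 14% of 16302 genes called (7.7% higher, 6.29% lower). The groups did not overlap for 4 of the 5 genes, all but Esr1, and for 70.6% of all genes. The call was lost without puberty (0.0826), adult (0.0501), hyperplasia 1 (0.0989) or hyperplasia 2 (0.0686), and the number of genes called was then 1 to 183. The hyperplasia libraries were also those with the most ECM remodeling-like cells, 44.5% and 39.9% of fibroblasts, the named class in which Nr3c2 was highest by CPM in each of the 13 libraries and by thinned share in 4 of 5 stage, 4 of 4 hormone and 3 of 4 raGFP-Wnt1 libraries. Within that class Nr3c2 was at 16.8 and 13.8 CPM in hyperplasia, and at 8.05 and 5.54 CPM in ECM remodeling-like cells of puberty and adult glands, which were clustered apart. Lactation and involution glands had 6.03 and 5.32 CPM, and these libraries shared the high Cebpb of the raGFP-Wnt1 libraries (538.9 and 747.9 CPM, against 846.1 to 1129 CPM). Other libraries with high Cebpb held less Nr3c2, at 4.39 and 4.83 CPM under placebo, 3.47 and 4.15 CPM under MPA + E and 2.55 and 2.11 CPM in tumors. The choice of normal glands bears on the size here too, since the wildtype placebo libraries, which were not in this fit, lay above the normal libraries and below both hyperplasia libraries. The part of class makeup or of the Cebpb split in the result was not tested.

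Pgr and Greb1 differed more between the 2 hyperplasia libraries than any other of the 5 genes, by a factor of 10.6 (8.95 to 12.6) for Pgr and 4.41 (3.83 to 5.10) for Greb1, both higher in the younger mouse. Esr1 was lower there, by a factor of 1.39 (1.32 to 1.46). In progenitor-like cells alone Pgr was at 5.97 CPM in hyperplasia 1 and 60.5 CPM in hyperplasia 2, and Greb1 at 5.50 and 26.1 CPM, so a gap of like size stood within the class. Each library was 1 mouse, so mouse and age cannot be told apart.

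From hyperplasia to tumor, Nr3c2 fell by 2.11 on the log2 scale (SE 0.25, adjusted p = 0.00605, limma-voom), from 11.1 and 9.25 to 2.55 and 2.11 CPM. Nr3c1 fell by 0.95 (SE 0.21, adjusted p = 0.0233), from 206.5 and 204.5 to 125.2 and 90.5 CPM, and Esr1 by 1.47 (SE 0.38, adjusted p = 0.0339). All 3 were lower in the tumor than in the hyperplastic gland of the same mouse, in 2 of 2 mice, and 29.3% of all genes passed (15.4% higher, 13.9% lower). The groups did not overlap for 4 of the 5 genes, all but Greb1, and for 72.2% of all genes. Pgr (-4.12 ± 1.503, adjusted p = 0.0803) and Greb1 (-1.53 ± 0.86, adjusted p = 0.210) did not pass without the mouse in the model. With the mouse as a block over the 4 raGFP-Wnt1 libraries, Pgr (-4.46 ± 0.57, adjusted p = 0.0182) and Greb1 (-1.44 ± 0.17, adjusted p = 0.0172) passed too. Hyperplasia held 7.26 (5.03 to 10.7) times as much Pgr as the tumor within mouse 1 and 35.8 (28.1 to 46.3) times as much within mouse 2. The 2 mice thus shared the direction of the Pgr fall but not its size.

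The Esr1 call was lost without any of 5 libraries, each but tumor 1 (adjusted p 0.0529 to 0.187), and with the stricter gate (0.0525), that of Nr3c1 without hyperplasia 1 (0.133) or 2 (0.0977) and that of Nr3c2 without hyperplasia 1 (0.0577). Pgr passed with DESeq2 (0.000734), with edgeR (0.0253) and without hyperplasia 1 (0.0244).

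The makeup of the tumor libraries differed too, with 14.7% and 38.4% of fibroblasts in a myofibroblastic-like class (1.80% and 1.70% in hyperplasia) and with progenitor-like cells at 38.1% of tumor 1 and 7.06% of tumor 2. An unnamed raGFP-Wnt1 cluster of 2636 cells, led by F5, Igfbp2 and Cdkn2a, was nearest to the myofibroblastic-like class, whose shares leave it out. ECM remodeling-like cells, the named class highest in Nr3c2 by CPM, took a smaller share of either tumor than of either hyperplasia library. Nr3c2 in that class ran from 16.8 CPM in hyperplasia 1 to 5.70 CPM in a tumor. The part of these shares in the Nr3c2 fall was not tested. Within progenitor-like cells Esr1 was at 110.3 and 64.5 CPM in hyperplasia and 45.5 and 26.8 CPM in tumors, Nr3c2 at 7.44 and 7.22 against 2.10 and 1.16 CPM, and Pgr at 5.97 and 60.5 against 0.512 and 3.804 CPM. The lower levels were therefore present inside the class as well. That class joined 2 clusters, one led by Hp, Rnd1 and Prg4 and one by Krtdap and Itgb7, and the first held 43.1% and 40.7% of it in hyperplasia but 69.6% and 89.97% in tumors. In the first cluster alone Esr1 was at 90.2 and 57.7 CPM in hyperplasia and 39.7 and 25.9 CPM in tumors, and Pgr at 2.82 and 35.7 against 0.209 and 3.86 CPM.

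**Figure D5:**
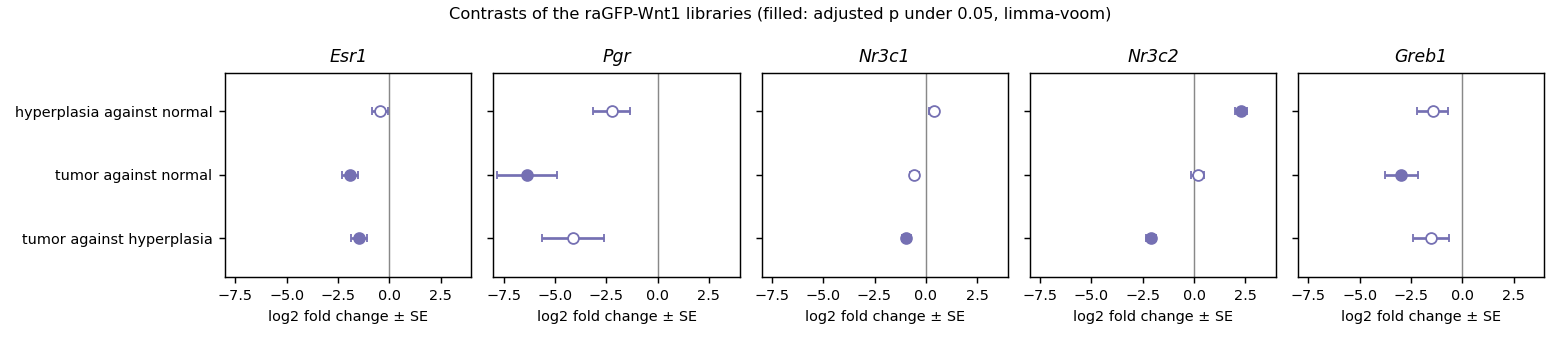
Log2 fold changes with their SE for the 3 contrasts of the raGFP-Wnt1 libraries (limma-voom, 1 fit of 6 libraries, no mouse block). Filled points have an adjusted p under 0.05. Nr3c2 is right of 0 in hyperplasia (2.28) and left of 0 from hyperplasia to tumor (-2.11), and Pgr lies farthest left in tumors against normal glands (-6.36), with wide bars in each contrast.

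Among the pathway lists, of 18 glucocorticoid receptor targets 9 fell and none rose from hyperplasia to tumor by limma-voom, where 13.9% of all genes were called lower and 15.4% higher. Among those that fell were Zbtb16 (-4.38), Pdk4 (-2.76), Tsc22d3 (-1.80), which encodes the anti-inflammatory GILZ, and Klf15 (-1.62). Their median was -0.84, beside -0.01 for all genes. Against normal glands 1 of the 18 rose in tumors, Ddit4 (2.40), and 4 fell, Zbtb16 (-4.46), Klf15 (-2.16), Per1 (-0.92) and Errfi1 (-0.75), beside 12.7% of all genes called higher and 10.1% lower. Zbtb16 and Tsc22d3 stand in the mineralocorticoid list as well, in which 4 of 10 fell, the others named being the sodium channel subunit Scnn1b (-4.97) and the clock gene Per1 (-1.06). Scnn1b had risen in hyperplasia against normal glands (3.72 ± 0.54), where 2 of 10 of this list rose and 1 fell, and Tsc22d3 (1.04) was the 1 of 18 glucocorticoid targets that rose, beside 7.7% of all genes called higher and 6.29% lower.

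Of 14 estrogen receptor targets, 6 rose from hyperplasia to tumor, led by Ccn5 (2.42), Stc2 (1.83), Ccnd1 (1.63) and Igfbp4 (1.32), and Bcl2 (-0.87) fell, while Esr1 fell as well, beside 15.4% of all genes called higher and 13.9% lower. Against normal glands 6 of 14 rose in tumors, led by Stc2 (2.29), Egr3 (2.09), Rara (1.495) and Igfbp4 (0.90), and none fell by limma-voom, beside 12.7% and 10.1% of all genes. These genes are known to answer to growth factors and stress as well as to estrogen. In hyperplasia 3 of 14 rose, Egr3 (2.33), Rara (1.09) and Bcl2 (1.05), beside 7.7% of all genes.

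Progesterone targets split. Against normal glands 4 of 12 rose in tumors, Tnfsf11 (5.64), Il13ra2 (4.43), Calca (3.97) and Cebpb (3.88), and 4 fell, Hand2 (-3.15), Bmp2 (-2.68), Foxo1 (-1.63) and Errfi1 (-0.75), beside 12.7% of all genes called higher and 10.1% lower. Tnfsf11, the osteoclast and mammary growth factor RANKL, was at 0.04 and 0.08 CPM in normal glands, 0.27 and 0.11 CPM in hyperplasia and 1.88 and 6.81 CPM in the tumors, the libraries with the least Pgr. In hyperplasia Cebpb (4.13), Wnt4 (2.34), Id4 (1.66) and Nr2f2 (1.22) rose and Hand2 (-2.22) fell, beside 7.7% of all genes called higher and 6.29% lower. Cebpb is also the gene by which the libraries split, at 543.5 and 1043 CPM in wildtype placebo glands, which were not in this fit, and at 910.4 and 846.1 CPM in the tumors. Wnt4 went from 18.6 and 17.0 CPM in hyperplasia to 3.52 and 2.52 CPM in tumors, a fall by 2.56 (SE 0.22), and 3 of the 12 rose and 6 fell in that contrast, beside 15.4% and 13.9% of all genes. Of chaperones Fkbp4 fell in hyperplasia (-1.20) and in tumors (-0.998) against normal glands, Hsp90aa1 fell in tumors against normal glands (-0.91), and Hsp90aa1 (-1.002) and Hspa8 (-0.68) fell against hyperplasia. Of 15 coregulators 4 fell from hyperplasia to tumor, beside 13.9% of all genes, among them Ncoa1 (-1.27), Ncoa3 (-1.07) and Ep300 (-0.83), Ep300 alone rose in hyperplasia (1.45), and none passed between tumor and normal glands by limma-voom (4 at an unadjusted p under 0.05, 3 called by DESeq2 and 0 by edgeR). Pgrmc1 rose in hyperplasia (0.90) and fell from there to tumor (-0.64), and Paqr7 (0.84) and Pgrmc2 (0.70), which encode membrane progesterone receptors, rose in tumors against normal glands.

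Over the 13 libraries the log2 levels of Greb1 and Pgr went together (Pearson r = 0.86, 0.91 over the 9 wildtype ones), and in the 9 wildtype libraries Greb1 and Esr1 (-0.86) and Pgr and Nr3c1 (-0.93) went opposite ways, while over all 13 these r were -0.30 and 0.13. These are descriptions over libraries that share experiment and arm. By the same measure the genes most like Pgr were Bmp8a, Tmod1, Il4ra, Kdr and Spon2 (r 0.94 to 0.98 over 13 libraries, among 9437 genes), those most like Greb1 were Znhit6, Ngfr, Nxnl2, Cmc4 and Nt5c3 (0.92 to 0.95), and those most like Esr1 were Osbpl1a, Raph1, Anks1, Filip1 and Adamtsl4 (0.93 to 0.96). Bmp8a, a BMP-family ligand, ran from 0.62 CPM in tumor 2 to 28.8 CPM in MPA+E 2, and Ngfr, a neurotrophin receptor, from 0.32 CPM in tumor 1 to 74.8 CPM in MPA+E 2. Nearest to Nr3c1 were Arhgef10, Tasor, Rab30, Arhgap12 and Cenpv (0.94 to 0.96), and nearest to Nr3c2 were Trpc1, Atp1b2, Rif1, Fbrsl1 and Spaca6 (0.95 to 0.99).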

How the data were processed

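Fibroblasts of 13 libraries (10x 3′ v3.1 chemistry) were read from the filtered matrices that the authors deposited, which hold UMI counts for each gene in each barcode, made per the submitters' processing notes with Cell Ranger 6.1.2 on mm10; they are raw counts without normalization. The 5 genes and all gene lists were chosen with earlier results of these data known. Barcodes were filtered as the report states, and doublets were kept, with an alternative that left out those called by Scrublet. Python 3.11.15, scanpy 1.11.5 and R 4.3.3 were used.

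Counts were summed per library, and per library and class, since cells are not replicates. MPA + E was tested against placebo, and within classes, with edgeR 4.0.16 (quasi-likelihood, TMM, filterByExpr), and the raGFP-Wnt1 contrasts with limma-voom (limma 3.58.1) fitted once over the 6 libraries, where the normal group joins puberty and adult. p-values were adjusted over all genes tested (Benjamini-Hochberg, two-sided). An edgeR SE is the fold change divided by the square root of F. Nothing in the labels says that hormone replicates came from separate cohorts, so p-values measure only the spread between these libraries. Stages were not tested. Intervals are exact 95% Poisson or binomial ones for counting error. Thinning drew 2000 UMIs per cell and left out shallower cells.

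Classes came from Seurat 5.3.0, for stage, hormone and raGFP-Wnt1 libraries separately (1000 features, 30 dimensions, resolution 0.3), with 174 genes left out. A cluster took the name of its best-matching state when at least 3 of that state's markers were raised by 1 on the log2 scale. It also needed a marker of that state among its 10 leading genes, or else 4 raised markers. Hyperplasia and tumor were paired by mouse (correlation of same-mouse deviations 0.0954 over 16001 genes). The paper states that both tissues came from the same animal, and the pairs were matched by replicate number and age.

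In each list the text names up to 4 higher and 4 lower called genes with the largest changes per comparison of libraries, and, for each of the 5 genes, the 5 most similar genes by Pearson r of log2(CPM + 1) among genes with a mean of at least 5 CPM. On simulated data the hormone fit recovered 69% of genes changed by 1 and 100% of those changed by 2 on the log2 scale, among 15647 genes, and the fit of differences between classes 38% and 94% among 12972. That last simulation held only the progenitor-like, preadipocyte-like and lobular-like classes, fewer than the test itself. Both simulations used a fixed spread and changed only genes above a floor of counts, so they do not give the recovery for genes near 0. Alternatives were DESeq2 1.42.0, edgeR or limma-voom exchanged, no filter, a 5% mitochondrial limit, a fibroblast gate of 100, non-fibroblasts kept, doublets removed, a replicate block, leaving out each library, 4000 UMIs and resolution 0.5. Equal class weights and leaving out libraries from the test between classes were added after the data were seen. Some listed genes that the rule for named genes selects are not reported here.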

Additional observations from a re-analysis of the deposited data

Results flagged for a closer look

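The effect of MPA + E on Pgr differed between the 5 named fibroblast classes (adjusted p = 2.74e-05, edgeR quasi-likelihood F-test of the interaction over 13841 genes, 12.1% of which passed). The log2 fold change was 1.54 in progenitor-like, 3.10 in ECM remodeling-like, 4.31 in preadipocyte-like, 4.48 in adipogenesis-regulatory-like and 4.503 in lobular-like cells. Pgr under placebo was 19.6 and 27.4 CPM in progenitor-like cells and at most 1.04 CPM in the other 4 classes, where the fold changes rest on few UMIs. What lies behind the difference was not tested.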

How the results depend on the processing

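Over all alternatives 513 results kept their direction and their side of the threshold or stayed within their spread, 61 moved, 15 passed in addition, 35 no longer passed and 5 reversed, each of these 5 a value of Nr3c2 that passed in no fit. With 2 libraries a group, leaving out 1 decides most calls, the depth of the Nr3c2 counts is low, and the causes of the changes below were not tested.

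With DESeq2 the number of genes called was 1358 (678 with edgeR) in the hormone comparison, 4017 (2280 with limma-voom) for hyperplasia against normal, 365 (167) in ECM remodeling-like and 751 (452) in progenitor-like cells, Nr3c1 passed in the hormone comparison (-0.43), and Pgr passed from hyperplasia to tumor (-4.72) and in progenitor-like cells (1.54). With edgeR in place of limma-voom, Greb1 in tumors against normal (-2.62) no longer passed and Pgr from hyperplasia to tumor (-4.75) did. With no filter 693 (437) genes passed in adipogenesis-regulatory-like, 849 in ECM remodeling-like, 746 (262) in lobular-like, 1725 (575) in preadipocyte-like and 858 in progenitor-like cells, and Pgr passed in the last (1.53). Greb1 in tumors no longer passed with non-fibroblasts kept (-2.98) or the gate of 100 (-2.91), nor did Esr1 from hyperplasia to tumor with that gate (-1.32).

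The labels do not say whether hormone replicate numbers pair the libraries (correlation 0.396 over 15642 genes, 2 pairs). With a replicate block 2451 genes passed in the hormone comparison, 1578 in adipogenesis-regulatory-like, 1434 in ECM remodeling-like, 800 in lobular-like, 2835 in preadipocyte-like and 1595 in progenitor-like cells. Under that replicate block Nr3c1 passed in all fibroblasts (-0.42), preadipocyte-like (-0.37) and progenitor-like cells (-0.42), as did Pgr in progenitor-like cells (1.502). With the mouse as replicate block Pgr (-4.46) and Greb1 (-1.44) passed from hyperplasia to tumor, and no other call of the 5 genes there changed.

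Leaving out 1 library at a time gave 22 to 900 genes in the hormone comparison, 1 to 4810 for hyperplasia against normal, 910 to 5479 (3716) for tumor against normal and 242 to 7120 (4777) for tumor against hyperplasia. By class it gave 187 to 687 in adipogenesis-regulatory-like, 55 to 607 in ECM remodeling-like, 177 to 662 in lobular-like, 90 to 477 in preadipocyte-like and 51 to 833 in progenitor-like cells, and 456 to 1482 (1673) for the difference between classes. The log2 fold changes then ran from -1.997 to -1.481 (Esr1) and 1.78 to 2.54 (Pgr) in the hormone comparison, and from 1.98 to 2.69 for Nr3c2 in hyperplasia. In tumors against normal they ran from -2.45 to -1.38 (Esr1), -6.86 to -5.82 (Pgr), -0.82 to -0.30 (Nr3c1), -0.12 to 0.58 (Nr3c2) and -3.96 to -1.91 (Greb1). From hyperplasia to tumor they ran from -2.001 to -0.932 (Esr1), -5.71 to -2.32 (Pgr), -1.20 to -0.68 (Nr3c1) and -2.28 to -1.95 (Nr3c2). By class the ranges were 2.94 to 3.30 for Pgr in ECM remodeling-like, -1.89 to -1.41 for Esr1 and 3.79 to 4.71 for Pgr in preadipocyte-like, and -2.51 to -1.69 for Esr1 and 1.03 to 1.90 for Pgr in progenitor-like cells. Nr3c2 ran from -0.66 to 0.00057 in adipogenesis-regulatory-like, -0.13 to 0.42 in ECM remodeling-like and -1.17 to 0.050 in lobular-like cells, and F of the difference between classes for Esr1 from 2.98 to 12.3.

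Equal class weights moved the ratios between the stages that were highest and lowest without them to 1.69 (Esr1), 6.81 (Pgr), 2.43 (Nr3c2) and 5.99 (Greb1), with the highest stage now the adult for Pgr and pregnancy for Greb1, and non-fibroblasts kept moved that of Nr3c1 to 1.66. With 4000 UMIs per cell, which by construction gives higher shares, the gaps between the extreme classes were 22.4 (Esr1), 8.39 (Pgr), 2.06 (Nr3c2) and 3.56 (Greb1) percentage points in stage libraries, 13.7 (Esr1), 12.9 (Pgr) and 17.2 (Nr3c1) in hormone libraries and 14.6 (Esr1) and 3.05 (Nr3c2) in raGFP-Wnt1 libraries. At resolution 0.5 no raGFP-Wnt1 cluster met the lobular-like name, so the Pgr and Greb1 gaps have no value there. The cluster of 1032 cells led by Comp and Kcnma1, genes that also led the lobular-like class at 0.3, met the myofibroblastic-like name. A cluster of 997 cells led by Cx3cr1 and Actg2 met it too. The cluster of 2466 cells led by Areg and Adamts8, genes that led the myofibroblastic-like class at 0.3, met no name. Both names thus rest on the resolution.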

Other observations

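Barcodes with at least 2 Epcam UMIs, no UMI of the marker of another cell type and too few Dcn, Lum and Col1a2 UMIs for the fibroblast gate gave epithelial values for the hormone libraries. In MPA+E 1, 28 such barcodes held 331.7 CPM of Pgr, 222.1 CPM of Greb1 and 87.1 CPM of Esr1. In MPA+E 2, 50 held 23.5, 53.4 and 10.7 CPM, and in placebo 2, 91 held 12.7, 28.5 and 29.99 CPM of the same genes. The MPA + E libraries thus differed widely from each other in the few epithelial cells that passed the Lin-CD24- sort, and no comparison was made.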
